A study of Homo sapiens with 6 samples.

Results

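SEMA3F, PLXND1, DVL2 and WNT16 were chosen by name, and they are 4 of the 99 genes analysed from the FPKM table. SEMA3F and PLXND1 belong to semaphorin and plexin signalling, and DVL2 and WNT16 belong to Wnt signalling. RNA was sequenced from LNCaP-AI, a castration-resistant cell line of the LNCaP prostate cancer lineage, in 6 libraries. The 3 knockdown libraries carried the hairpin construct sh_0092339 against the circular RNA hsa_circ_0092339, and the 3 control libraries were negative controls that carried the vector. The labels give 1 hairpin name, so anything that hairpin does to other RNAs cannot be told apart from loss of the circular RNA. The circular RNA itself was not analysed here, and the knockdown was not checked.

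Semaphorins are guidance cues that act on plexin receptors, which change the cytoskeleton and adhesion of the receiving cell, often with neuropilins as co-receptors. Wnt ligands bind Frizzled receptors, which recruit Dishevelled proteins on the inner side of the membrane, and in the canonical branch this stabilises beta-catenin. Both systems guide migration and growth of epithelial and endothelial cells and have been studied in prostate cancer. SEMA3F is a secreted ligand that signals through neuropilin-2 and A-type plexins, PLXND1 is a receptor best known for binding SEMA3E in blood vessels, DVL2 is a Dishevelled adaptor, and WNT16 is a secreted Wnt ligand.

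The series title links the circular RNA to hsa-mir-940 and MYC, and sequences through which each could be matched to the 4 genes are shown. The mature microRNA, from RefSeq on GRCh38.p14 at chr16:2271806-2271826 on the plus strand, is printed with its seed, bases 2 to 8, in capitals. The site searched in 3′ UTRs was CCTGCCT, the reverse complement of that seed, on the transcript strand. One transcript per gene of GENCODE 29 was used, the protein-coding one with the longest coding sequence. The 3′ UTR of SEMA3F, 960 bases long in ENST00000002829, held 4 matches, beginning 151, 217, 498 and 583 bases after the stop codon. They are printed with 10 bases on each side and the match in capitals.
hsa-miR-940: aAGGCAGGgcccccgcucccc
SEMA3F match 1: ttgaatatagCCTGCCTcagtggcagc
SEMA3F match 2: gaaaacagagCCTGCCTaaccaggccc
SEMA3F match 3: gatgccagccCCTGCCTgggttggggg
SEMA3F match 4: gaagaggcatCCTGCCTgggtgggaca

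The 3′ UTRs of PLXND1 (1137 bases), DVL2 (524 bases) and WNT16 (1759 bases) held no match. Among all 19145 protein-coding genes with such a 3′ UTR, 24.4% had at least 1 match and 1.43% had at least 4. Of the 70 genes tested in the FPKM table, 24.3% had at least 1, and SEMA3F was the 1 gene with at least 4. A match is a run of letters and does not show that the microRNA binds there. The median 3′ UTR was 797 bases over all these genes and 1047 bases over the tested ones.

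The E-box CACGTG, the core sequence bound by MYC with MAX and also by USF and TFE factors, was searched in RefSeq promoter windows of 300 bases (250 before and 50 after each annotated start, GRCh38.p14). It reads the same on both strands. This motif was picked after the DVL2 window had been read. The DVL2 window held 3 copies, beginning 90, 71 and 24 bases before the start. By the start of DVL2 in GENCODE 29, 7234545, the last of these copies lies inside the gene. The 120 bases before the start, chr17:7234518-7234637 on the minus strand, are shown with the copies in capitals.
DVL2 promoter: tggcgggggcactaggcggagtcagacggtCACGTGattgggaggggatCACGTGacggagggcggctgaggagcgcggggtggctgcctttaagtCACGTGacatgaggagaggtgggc

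Of 35116 promoter windows, 7.26% held at least 1 copy, 0.664% at least 2 and 0.094% at least 3. Since the motif was picked after the DVL2 window had been read, these shares are a description and no test. The 3 windows of SEMA3F and the single windows of PLXND1 and WNT16 held none. The GC content of the DVL2 window was 67%, against a median of 58.7% over all windows. MYC was not analysed here, so no MYC level can be set beside these matches.

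**Figure D1:**
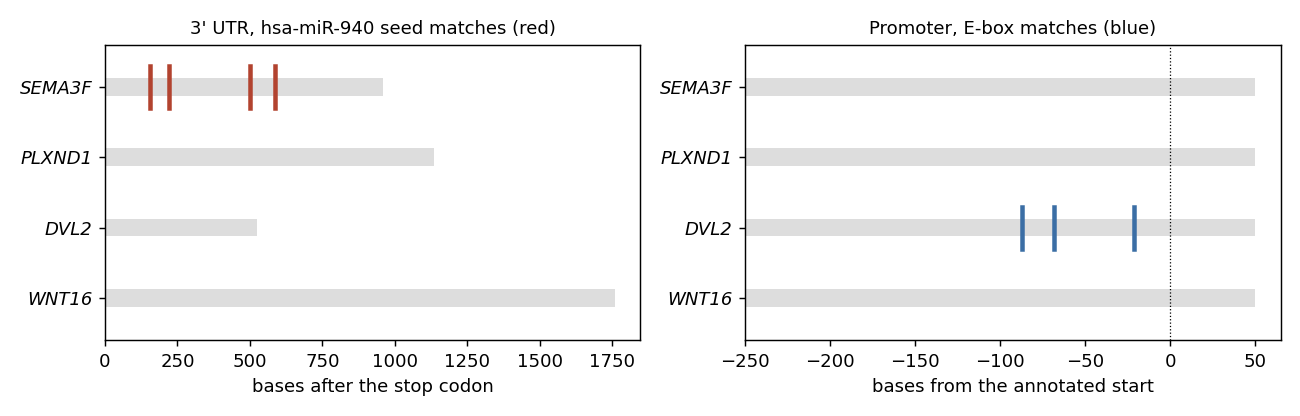
Positions of matches to the hsa-miR-940 seed in the 3′ UTR (left, in bases after the stop codon) and of E-box matches in the promoter window (right, in bases from the annotated start) of the 4 genes. Grey bars are the stretches searched; for the 3 SEMA3F windows, none of which had a match, 1 bar is drawn. SEMA3F has 4 seed matches and DVL2 has 3 E-box matches, and the other bars are empty.

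Depth was estimated from the isoform table, from count, length and FPKM, as the median over 23 or 24 isoforms in each library. It was 53127020 to 80559726 mapped fragments in the knockdown libraries and 58091756 to 68990788 in the controls. FPKM is scaled to the length of the gene and to the mapped fragments of the library, so it can be compared between genes. A table of 99 genes is a small part of a transcriptome, and no member of the marker lists for prostate luminal, basal, neuroendocrine, fibroblast or endothelial cells was in it. The 3 immune or erythroid markers in it were at or near 0: MPO had 0 counts in every library, FGR had 0 counts in all 3 knockdown libraries and 4, 12 and 0 in the controls, and SLC4A1 had 4, 4 and 0 in the knockdown against 11, 0 and 0 in the controls. The labels do not say that replicates came from separate cultures, and p-values thus cover the spread between libraries only, some or all of which may be technical.

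SEMA3F, the ligand, fell in the knockdown. Its levels in knockdown replicates 1 to 3 were 2.06, 1.77 and 1.81 FPKM, against 3.13, 2.80 and 3.34 FPKM in control replicates 1 to 3. Each knockdown library was below each control library, and the gap between the groups was wider than the range within either. The counts behind them were 531, 692 and 646 in the knockdown and 881, 794 and 1115 in the controls. Counting error alone gives an SD of 2.99% to 4.34% for such counts, while the replicates varied by 8.49% in the knockdown and 8.81% in the controls.

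The mean of SEMA3F was 1.88 ± 0.16 FPKM in the knockdown and 3.09 ± 0.272 FPKM in the controls (SD, n = 3 each), 39.2% lower. Limma's log2 fold change of FPKM + 1, which shrinks the change of low genes, was -0.51 ± 0.0774 (SE), with an adjusted p of 0.00726. On the counts, edgeR's quasi-likelihood test gave -0.72 ± 0.116 (SE), with an adjusted p of 0.0108. That test reports no SE. Each SE printed for edgeR is the absolute log2 fold change divided by the square root of the test's F statistic. In a bulk sample, fewer cells that express the gene and less RNA per cell cannot be told apart, and this holds for each gene here. SEMA3F lies on the plus strand of chromosome 3 (50155045 to 50189075, GRCh38, protein-coding). The span of SEMA3F-AS1 on the opposite strand takes in 799 of its 4826 exonic bases. Whether counting used the strand is not given, so reads there may belong to either gene.

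PLXND1, the receptor, was lower in the knockdown by 24.1%, a difference that did not pass the test. Its levels were 4.24, 3.90 and 3.54 FPKM in knockdown replicates 1 to 3, against 4.29, 5.35 and 5.75 FPKM in control replicates 1 to 3. The groups did not overlap, but control replicate 1 and knockdown replicate 1 lay side by side. Their counts, 2158 in knockdown replicate 1 and 2390 in control replicate 1, carry counting SDs of 2.15% and 2.05%, and on the FPKM scale the 2 libraries differed by less than that.

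The means of PLXND1 were 3.89 ± 0.352 FPKM in the knockdown and 5.13 ± 0.751 FPKM in the controls (SD, n = 3 each). The controls varied by 14.6%, the widest spread of any group of SEMA3F, PLXND1 or DVL2. Limma gave a log2 fold change of -0.32 ± 0.104 (SE), with a 95% interval from -0.57 to -0.07 that is not adjusted for the number of genes and an adjusted p of 0.0563. By edgeR it was -0.40 ± 0.124 (SE), with an adjusted p of 0.055. The call depended on the library and on the setting. Without control replicate 1, PLXND1 was called by limma (-0.42, adjusted p = 0.0258) and by edgeR (-0.50, adjusted p = 0.0397). With all 6 libraries it was called by limma with median centring (adjusted p = 0.0467), by DESeq2 (adjusted p = 0.00699), and by edgeR with upper-quartile scaling (adjusted p = 0.0226) or no low-count filter (adjusted p = 0.0459). The gene lies on the minus strand of chromosome 3 (129555214 to 129606676, protein-coding), and the small RNA gene RN7SL752P on the other strand overlaps 0 of its exonic bases.

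DVL2, the adaptor, fell in the knockdown and had the smallest spread of the members. Its levels were 11.7, 11.2 and 10.5 FPKM in knockdown replicates 1 to 3, against 13.9, 14.6 and 13.7 FPKM in control replicates 1 to 3. All knockdown libraries were below all controls. The counts were 3326, 4799 and 4124 in the knockdown and 4305, 4554 and 5031 in the controls, with counting SDs of 1.41% to 1.73%. The replicates varied by 5.57% in the knockdown and 3.34% in the controls, against medians of 6.91% and 7.23% over the tested genes.

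The mean of DVL2 was 11.1 ± 0.62 FPKM in the knockdown and 14.1 ± 0.47 FPKM in the controls (SD, n = 3 each), 20.8% lower. Limma gave a log2 fold change of -0.31 ± 0.0579 (SE), with an adjusted p of 0.0097, and by edgeR it was -0.34 ± 0.0605 (SE), with an adjusted p of 0.0108. DVL2 lies on the minus strand of chromosome 17 (7225342 to 7234517, protein-coding), where no other gene of GENCODE 29 overlaps it.

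WNT16, the Wnt ligand, was low in every library, and no difference was detectable against the spread between the controls. Its levels were 0.0924, 0.0695 and 0.131 FPKM in knockdown replicates 1 to 3, against 0.191 and 0.0668 FPKM in control replicates 1 and 3, while control replicate 2 is listed at a count of 0. Whether that 0 is a true count or a transcript that was not reported is not known, and the control mean, sum and fold changes rest on it: without control replicate 2 the edgeR log2 fold change was -0.40 (adjusted p = 0.66). The highest and the lowest value were both in controls, and the groups overlap. The counts were 17, 19 and 32 in the knockdown and 37, 0 and 16 in the controls. Read as a count, the 0 allows up to 3 counts (a one-sided 95% limit), or 0.0151 FPKM, and intervals and floors cover counting error only. The exact two-sided 95% Poisson intervals of control replicate 1 (26.1 to 51.0 counts) and control replicate 2 (0 to 3.69 counts) do not meet, so on that reading the controls differed beyond counting error. The CV was 32% in the knockdown and 113% in the controls.

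Summed over libraries, WNT16 had 68 counts in the knockdown and 53 in the controls. Scaled to the mapped fragments, that is 0.328 CPM in the knockdown (95% exact Poisson interval 0.255 to 0.416) and 0.285 CPM in the controls (0.214 to 0.373). These intervals cover the counting error of the sums and leave out the spread between libraries. Single libraries had 0.32, 0.236 and 0.435 CPM in the knockdown and 0.637, 0 and 0.232 CPM in the controls. The exact two-sided permutation p for the mean FPKM was 0.8 (n = 3 each). With 3 against 3 the smallest p is 0.1, so an exact permutation test could not call any difference. Since its mean was under 1 FPKM, WNT16 was not tested in the limma fit. In that fit without the filter the log2 fold change was 0.02 (adjusted p = 0.864), and edgeR gave 0.18 ± 1.02 (SE), with an adjusted p of 0.901. The fold change depended on the setting: the count fits gave 0.75 with a replicate block and 1.55 by limma-voom (adjusted p = 0.642 and 0.41), and log2(FPKM + 0.1) gave 0.21 (exact permutation p = 0.7). WNT16 lies on the plus strand of chromosome 7 (121325367 to 121341104, protein-coding), and no other gene of GENCODE 29 overlaps it.

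**Figure D2:**
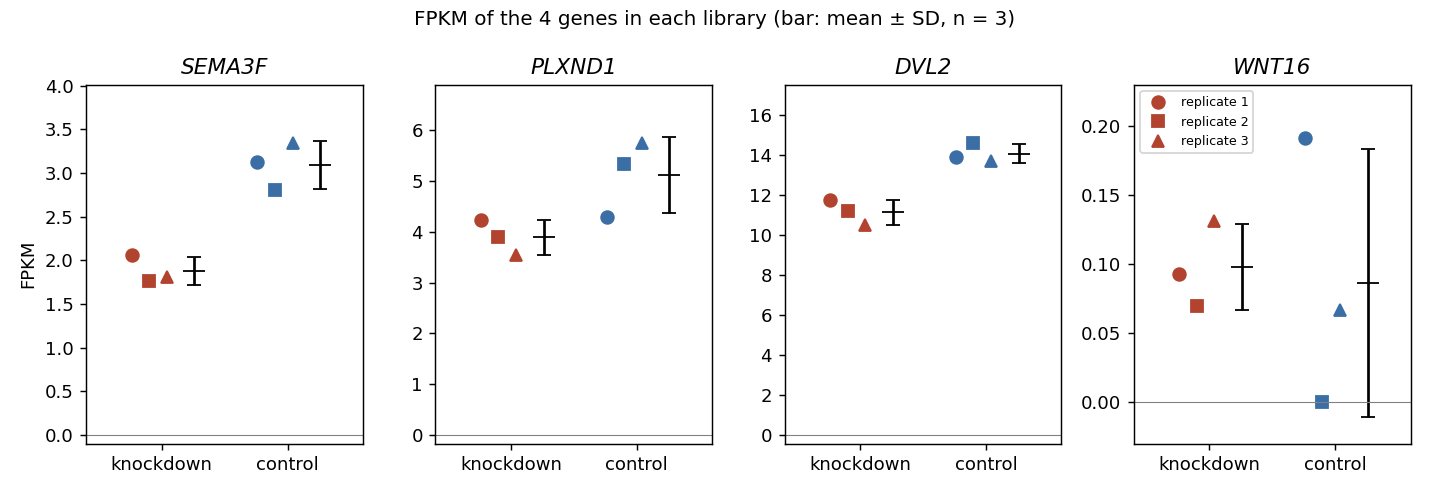
FPKM of SEMA3F, PLXND1, DVL2 and WNT16 in each knockdown library (red, left) and control library (blue, right), with the mean ± SD of 3 libraries beside them and a separate linear axis for each gene. SEMA3F and DVL2 are lower in every knockdown library, PLXND1 control replicate 1 (4.29) lies beside knockdown replicate 1 (4.24), and WNT16 overlaps.

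Across the table, the limma fit called 31.4% of the 70 tested genes in either direction and 11.4% of the 70 as lower in the knockdown. It called 2 of the 3 tested members, both as lower. The edgeR fit called 25% of its 84 tested genes in either direction and 9.52% of the 84 as lower, and it called 2 of the 4 members, again SEMA3F and DVL2. These shares moved by over 1.5 times with single libraries: limma called 13 of 70 genes without knockdown replicate 1 and 14 of 70 without knockdown replicate 3, against 22 of 70 with all, and edgeR called 9 of 85 without knockdown replicate 2 and 13 of 85 without control replicate 2, against 21 of 84. The median log2 fold change was -0.32 over the 3 members tested by limma and 0.03 over all tested genes. By edgeR it was -0.37 over the 4 members and 0.01 over all. The members were picked by name from a table with many changes, so these counts describe them and do not set the group apart. Groups that do not overlap with the knockdown below were found for 21.4% of tested genes and for SEMA3F, PLXND1 and DVL2 among them.

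**Figure D3:**
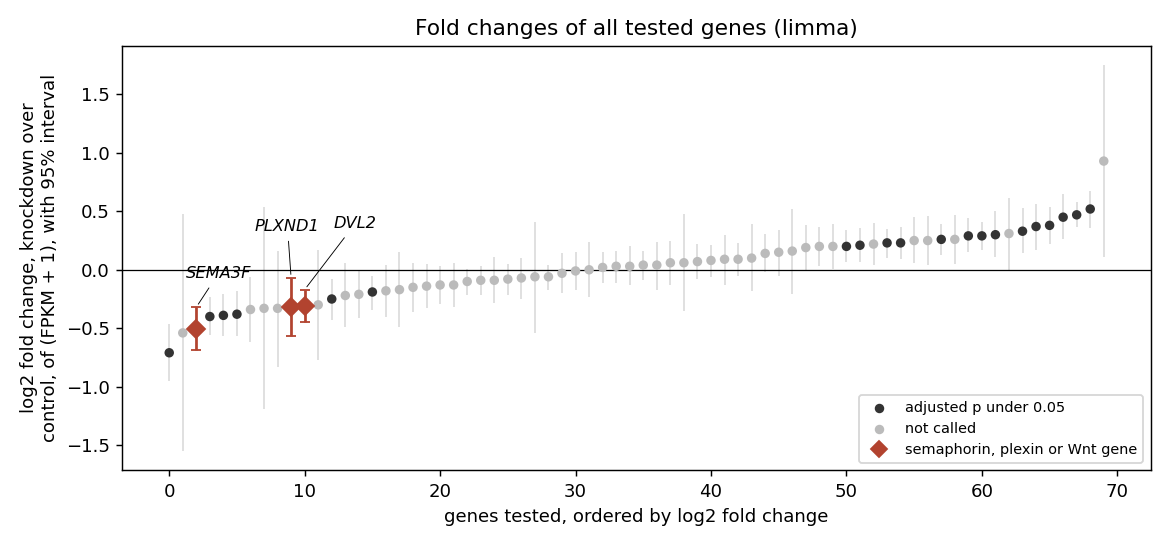
Log2 fold change of FPKM + 1, knockdown over control, with its unadjusted 95% interval for all 70 genes tested by limma, ordered from lowest to highest. Dark points have an adjusted p under 0.05; the red diamonds SEMA3F, PLXND1 and DVL2 stand at ranks 3, 10 and 11 from the lowest.

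The order of levels per length was DVL2, PLXND1, SEMA3F and WNT16 in all 6 libraries. By mean FPKM over all libraries, DVL2 stood at rank 28, PLXND1 at 48, SEMA3F at 61 and WNT16 at 81 among the 99 genes. The 3 ratios among DVL2, PLXND1 and SEMA3F were compared by an exact permutation test. Its smallest p with 3 against 3 is 0.1, so it could not call any difference. The ratio of DVL2 to SEMA3F averaged 5.94 ± 0.332 in the knockdown and 4.58 ± 0.569 in the controls, and that of PLXND1 to SEMA3F 2.07 ± 0.125 in the knockdown and 1.67 ± 0.272 in the controls (SD, n = 3 each). For each of these ratios the groups did not overlap. The exact two-sided permutation p was 0.1 for each, the smallest that 3 against 3 allow (0.15 adjusted over 3 ratios). How often the ratios of other gene pairs separate in this way was not tested. The ratio of DVL2 to PLXND1 was 2.87 ± 0.1 in the knockdown and 2.78 ± 0.432 in the controls (exact permutation p = 0.7, 0.7 adjusted).

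The genes whose pattern was most like each member were taken by Pearson's r of log2(FPKM + 1) over the 6 libraries. The libraries share the group difference, so r is a description. For SEMA3F they were SPPL2B, an intramembrane protease (r = 0.984), DVL2 (0.917) and PDK4, a mitochondrial kinase that inhibits pyruvate dehydrogenase (0.886). For DVL2 they were BAD, a pro-apoptotic BCL2 family protein (0.920), SEMA3F (0.917) and SPPL2B (0.903). For PLXND1 they were LASP1, an actin-binding protein (0.932), NIPAL3 (0.856) and GCFC2 (0.844). With the group means removed, r for SEMA3F was 0.88 with SPPL2B, 0.01 with DVL2 and 0.56 with PDK4. For DVL2 it was 0.44 with BAD and 0.13 with SPPL2B, and for PLXND1 it was 0.83 with LASP1, 0.93 with NIPAL3 and 0.52 with GCFC2.

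The lists of semaphorin and Wnt pathway genes held 183 genes, members included, and 6 were in the table: the 4 members, CREBBP and HECW1. CREBBP, a histone acetyltransferase and coactivator used by beta-catenin, was not called in the knockdown. It had 9.16, 7.47 and 6.82 FPKM in the knockdown against 6.33, 7.12 and 8.10 FPKM in the controls, and the groups overlap (limma log2 fold change 0.10 ± 0.119 SE, adjusted p = 0.487). HECW1, a ubiquitin ligase reported to act on the Dishevelled protein DVL1, was low, at 0.045 ± 0.0111 FPKM in the knockdown and 0.0599 ± 0.0225 FPKM in the controls (SD, n = 3 each), and edgeR did not call it (-0.41 ± 0.371 SE, adjusted p = 0.422). Of the Wnt list, 1 of the 4 genes tested by edgeR was called, DVL2, and of the semaphorin list 1 of 2, SEMA3F; each fell. Against the 25% called over all genes tested by edgeR, such counts are no result about the lists.

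SEMA3F and DVL2 were called as lower in the knockdown under each of the 11 limma and 12 count alternatives. Some of these calls lay near the threshold. The largest adjusted p was 0.0489 for SEMA3F (edgeR without knockdown replicate 2) and 0.0447 for DVL2 (limma without knockdown replicate 3). PLXND1 was lower under all of the alternatives, and it was called under 2 of the limma and 4 of the count alternatives.

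**Figure D4:**
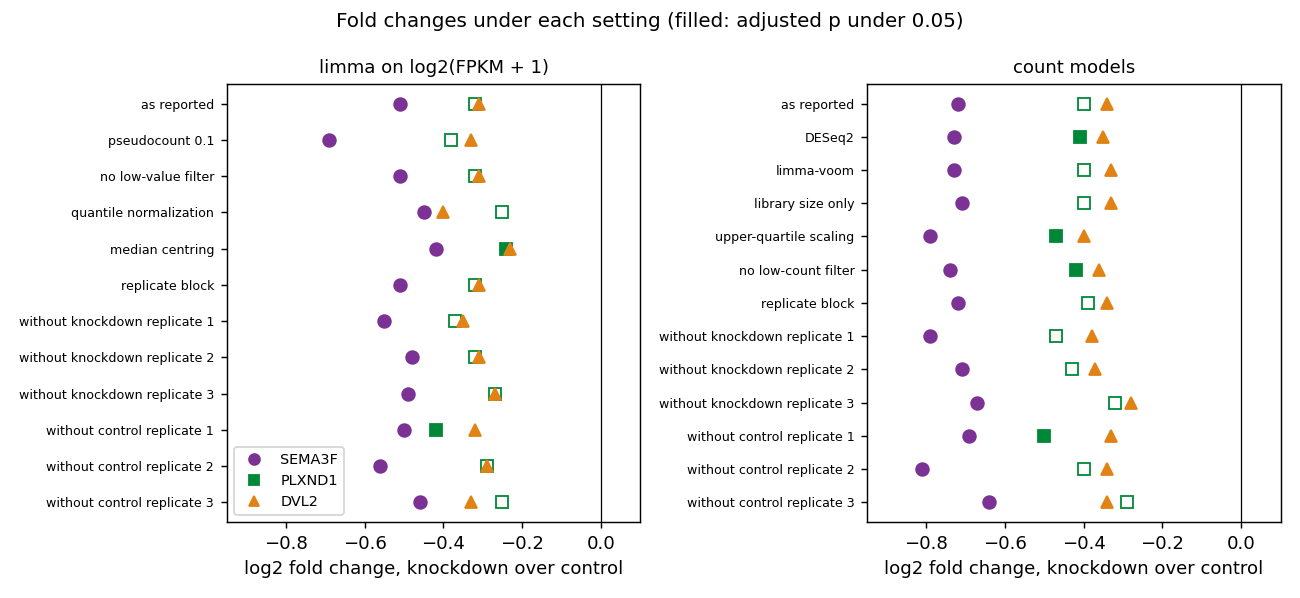
Log2 fold change, knockdown over control, of SEMA3F, PLXND1 and DVL2 for the fit as reported and each alternative, by limma on log2(FPKM + 1) (left) and by count models (right). Filled symbols have an adjusted p under 0.05; SEMA3F and DVL2 are filled throughout, and PLXND1 is filled for 2 of 11 alternatives on the left and 4 of 12 on the right.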

How the data were processed

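Per the submitters' processing notes, reads were handled with cutadapt, HISAT2 and StringTie (versions not given in the sources used here) and the build hg18. The coordinates are those of GRCh38: all 99 genes overlap the same gene of GENCODE 29, and 30 have the same start and end. For each gene the deposited table pairs FPKM values with whole-number counts, per the file headers; a count of 0 is listed at 0.0001 FPKM. Isoform length, a deposited value of another kind, was used with isoforms of at least 1000 counts to recover depth.

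The knockdown was compared with the control on log2(FPKM + 1) with limma 3.58.1 (trend; mean of at least 1 FPKM) and on the counts with edgeR 4.0.16 (quasi-likelihood, recovered depth, TMM, filterByExpr; R 4.3.3). A gene was called at a Benjamini-Hochberg adjusted p under 0.05 over all tested genes, 70 by limma and 84 by edgeR. Adjustment and TMM scaling thus rest on genes of the 99-gene table and are not transcriptome-wide. Replicates differed well beyond counting noise (chi-square 24 to 60.3 per degree of freedom), so none was taken as a repeat. The fits were also run on simulated data, but the outcome is not given here and no support is drawn from it. The members, gene lists and tests were chosen with earlier results of these data known. The other 2 count tables have no row for these genes and were not used. Genes like a member were the 3 with the highest r.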

Additional observations from a re-analysis of the deposited data

How the results depend on the processing

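The numbers of the replicates gave no sign of pairing. Deviations from the group means correlated at -0.12, -0.12 and -0.13 for replicates 1, 2 and 3. Between libraries of different numbers they correlated at -0.17 to 0.29. Values that scatter this widely cannot decide whether the libraries were paired. With a replicate block, limma called 17 genes (22 without it) and edgeR 19 (21 without it), SEMA3F and DVL2 kept their calls, and PLXND1 had an adjusted p of 0.114 and 0.135. SEMA3F was called under all 11 limma and all 12 count alternatives (log2 fold change -0.69 to -0.42 and -0.81 to -0.64), as was DVL2 (-0.40 to -0.23 and -0.40 to -0.28). PLXND1 was lower under all of them, and was called with median centring (adjusted p = 0.0467), DESeq2 1.42.0 (0.00699), upper-quartile scaling (0.0226), no low-count filter (0.0459) and without control replicate 1; its adjusted p ran from 0.0258 to 0.206 by limma and from 0.00699 to 0.153 on counts. Leaving out 1 library at a time, limma called 13 to 25 genes (fewest without knockdown replicate 1, and 14 without knockdown replicate 3) and edgeR 9 to 22 (9 without knockdown replicate 2, 13 without control replicate 2). The difference of WNT16 changed sign in these repeats: it ran from -0.04 to 0.09 on log2(FPKM + 1) and from -0.40 (without control replicate 2) to 1.44 (without control replicate 1) on counts; the largest value over all its count alternatives was 1.55, by limma-voom, and none called it. The CV between libraries was above the counting SD for all 4 genes in both groups. The counting SD was largest for WNT16, at 16.4% to 25% in the 5 libraries with a count. For WNT16 in the knockdown the CV was 32% against counting SDs of 17.7% to 24.3%. Whether that spread exceeds counting error was not tested.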
